A study of Carassius gibelio with 26 samples.

Results

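Chromosome 29 is one of the 50 numbered chromosomes of the goldfish annotation on which testis RNA of gibel carp (Carassius gibelio) was counted. Its members here are the 494 genes whose first listed chromosome is 29 and whose mean over all libraries was at least 1 CPM (a count over the library's total count, scaled to the same total in every library). They were 494 of 797 genes of the chromosome and of 62131 genes in the table. The other 303 fell under the threshold, 12 of them with 0 counts in every library. The member nearest to the threshold from inside lay at 9834158 to 9843605 with 1.00 CPM, and the gene nearest from outside lay at 19354399 to 19357908 with 0.975 CPM. The chromosome itself was picked from earlier results of these data, in which it was low in a single triploid male, replicate 3 of group 2, and therefore low in group 2 against group 3. Values of that male are given as a description, with no test. Calls in that contrast are also given as a description only and support nothing.

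RNA sequencing was run on the testes of 26 males, 1 library per male, all 2 years old. The 3n group 1 (n = 5) held triploid males sampled at 28 to 31 °C, descended from a female whose brood reversed sex from female to male in warm water only. The 3n group 2 (n = 5) held triploid males sampled at 28 to 31 °C, and the 3n group 3 (n = 6) triploid males sampled at 22 °C; the labels of both name as parent a female with such reversal over a wide span of temperatures. The 2n group (n = 10) held diploid males sampled at 22 °C. The labels name no treatment beyond temperature. Ploidy and parentage differed together between the triploid groups and 2n, and for groups 1 and 2 so did temperature, so these cannot be told apart. Library names carry a second number of unstated meaning (in group 1 it is 4, 5 or 6, in group 2 always 11, in group 3 it is 11 or 12, and in 2n 14, 106 or 108), which leaves the number of mothers per group uncertain. In group 1 the names of replicates 1 to 3 end in 31 and those of replicates 4 and 5 in 28, while all 5 names of group 2 end in 31. Nothing states that males of a group came from separate broods, so p-values measure the spread between these males.

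Goldfish and gibel carp descend from a hybrid ancestor that kept the chromosome sets of both parental species, and most of their chromosomes therefore have a partner with related gene copies. Chromosome 4, numbered 25 below chromosome 29, is the expected partner and serves here as background. In gynogenesis sperm triggers the egg to develop without passing on genes, and the offspring carry the chromosomes of their mother. Testis is known for broad transcription of the genome in its germ cells, so a large share of a chromosome's genes can be followed in a single tissue. DNA was not measured, and how many copies of chromosome 29 each male carried is not known from these files.

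Totals ran from 15375923 to 29503544 counts per library. Group 2 replicate 3 had 15492277 counts, the lowest total of its group, against 23073805 to 26755794 in the other 4 males of group 2. It also had the fewest genes with any count, 48608 against 49122 or more in the other males. Its TMM scaling factor, which corrects for the make-up of a library, was 0.879 and lay within the 0.861 to 0.910 of the other 4, and its mitochondrial share was 0.751% against 0.677 to 0.845%. Group 1 replicates 1 and 2 stood apart by scaling factors of 1.52 and 1.45, against 1.04 to 1.07 in the other 3 males of group 1. The IDs of the table are not paired with names, and 0 of 62131 matched the gene table at hand (98729 genes), so genes are given by ID or position, and testis markers and pathways could not be looked up. All positions are on chromosome 29 of goldfish assembly ASM336829v1.

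The members spanned positions 5715 to 23304781, with 241 on the plus and 253 on the minus strand. They had a median of 13 exons and 2424 bp of exon, close to the 11 exons and 2231 bp of all other genes with at least 1 CPM, and 12 of them (2.43%, against 2.66% of the other genes) had a single exon. Their median level was 8.36 CPM, against 9.50 CPM for the other genes. A few genes held much of the RNA: 46 of the 494 members made up 50% of the chromosome's summed CPM. In level, 251 members reached 8 CPM and 96 reached 32 CPM.

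In group 2 replicate 3 the RNA of the whole chromosome was low. Members of chromosome 29 took 0.709% of all counts in this male (109767 of 15492277 counts, exact 95% binomial interval 0.704 to 0.713%), which covers counting error only. The other 4 males of group 2 had 1.10, 1.09, 1.09 and 1.10% (mean 1.10 ± 0.00589%, SD, n = 4). The low male stood 0.647 times as high as they did, while those 4 were almost alike.

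Beyond that male, the share was nearly the same in every group. Group 1 averaged 1.13 ± 0.0270% (SD, n = 5; 1.10 to 1.17%), group 2 with all its males 1.02 ± 0.173% (SD, n = 5), group 3 1.10 ± 0.00753% (SD, n = 6; 1.09 to 1.11%) and 2n 1.12 ± 0.0243% (SD, n = 10; 1.08 to 1.16%). The ranges of groups 1 and 3 both overlapped that of 2n, and the low male lay under the lowest of the other 25. Group 2 replicate 3 was also a small library, and the part of library size in its low share was not tested; the other small library, 2n replicate 7 with 15375923 counts, had 1.08% of them on the members. Chromosome 4 took 1.46% of counts in group 2 replicate 3 and 1.47 to 1.51% in the other 4 males of group 2.

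**Figure D1:**
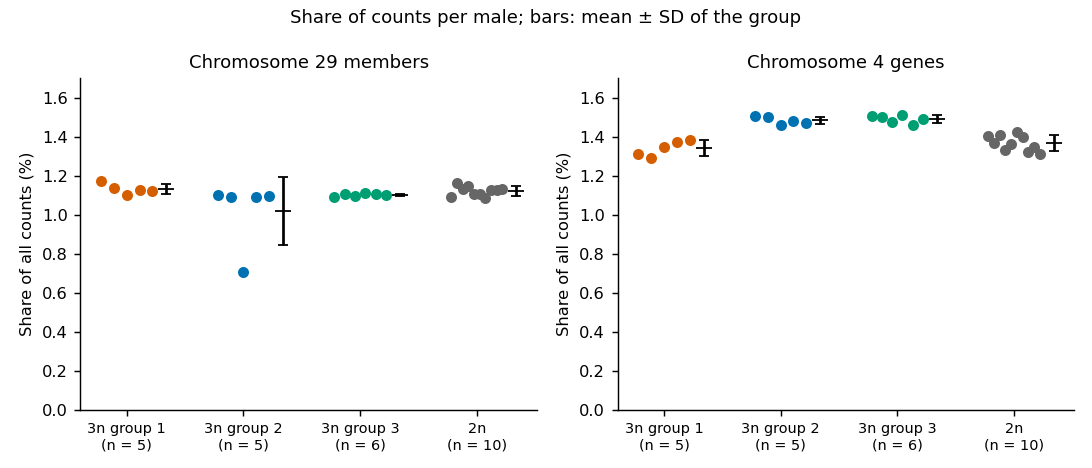
Share of all counts (%, vertical axis) on the 494 chromosome 29 members (left) and on 601 chromosome 4 genes (right), 1 point per male by group, with the group mean ± SD beside the points. Group 2 replicate 3 lies at 0.709% on chromosome 29 while every other male lies between 1.08 and 1.17%, and on chromosome 4 it lies at 1.46%.

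To follow the genes one by one, the median over the fellow males of the group was subtracted from each gene's log2(CPM + 0.5) in a male. From this difference, its median over all genes with a mean of at least 1 CPM was subtracted, which gave the relative level. The median of this relative level over the members was -0.57 in group 2 replicate 3, with quartiles of -0.79 and -0.35. It lay between -0.03 and 0.07 in the other 25 males. The other 4 males of group 2 had 0.05 to 0.07, slightly above 0, in a reference that holds the low male. Set against the other males of groups 2 and 3 together, the low male had -0.56 and the other 4 had 0.00 to 0.03.

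Nearly every member took part. In group 2 replicate 3, 472 of 494 members (95.5%) had a relative level below 0, against 48.1% of 601 chromosome 4 genes and 49.3% of all other genes. It was the lowest of the 5 group 2 males in 421 members (85.2%, against 22.6% of other genes), while the other 4 males were lowest in 12 to 22 members each. It was the highest of the 5 in 6 members (1.21%, against 22.9% of other genes). Among the 11 males of groups 2 and 3 together it was the lowest in 356 members (72.1%, against 9.66% of other genes). The middle 90% of members lay between -1.21 and -0.04. The median ratio of a member's CPM to the mean of the other 4 males was 0.642, with quartiles of 0.536 and 0.749.

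**Figure D2:**
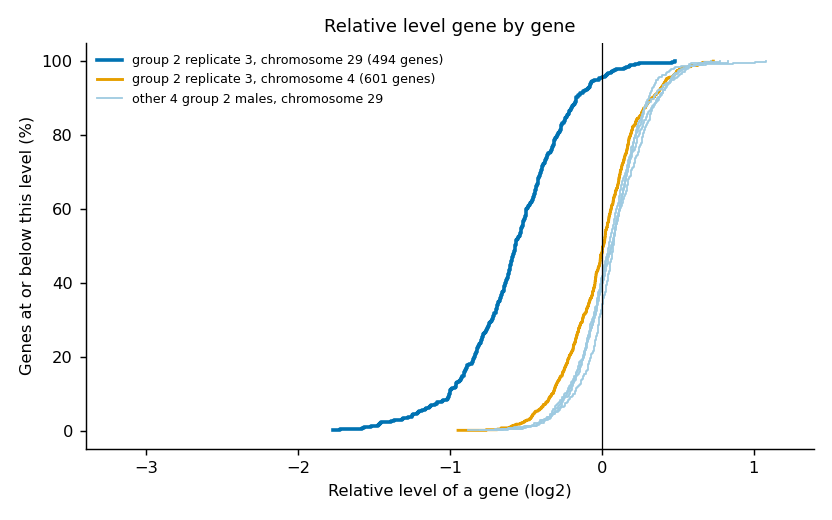
Cumulative share of genes (%, vertical axis) at or below a relative level (log2, horizontal axis) for chromosome 29 in group 2 replicate 3, for chromosome 4 in the same male and for chromosome 29 in the other 4 group 2 males. The whole curve of chromosome 29 in group 2 replicate 3 is moved to the left, with a median of -0.57, and the other curves cross their midpoint near 0.

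No other pair of a male and a numbered chromosome reached this value. Over the 1274 pairs of a male and 1 of the other 49 numbered chromosomes, medians ran from -0.46 to 0.29, and 0 were lower than -0.57. Other males also had a shifted chromosome: the -0.46 was in group 3 replicate 2 and the 0.29 in group 2 replicate 2. Group 2 replicate 5 had one at 0.25. Chromosome 29 was picked for its low value, so its place at the end of the order was partly set by that choice. Within group 2 replicate 3, the other 49 chromosomes lay between -0.19 and 0.05, and chromosome 4 lay at 0.01. In bulk tissue, fewer cells that transcribe the chromosome and less RNA from it per cell cannot be told apart.

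The members of highest level showed the drop in plain counts. The most abundant, at 19877399 to 19886150, had 190 CPM in group 2 replicate 3, against 400, 379, 437 and 431 CPM in the other 4 males of group 2. The member at 5675567 to 5688596 had 223 CPM in the low male, against 356, 318, 369 and 387 CPM. The member at 6239423 to 6252495 had 145 CPM in the low male, against 256, 241, 254 and 282 CPM. In all 3 the low male lay apart from its group. The member at 15246237 to 15248002 had 136 CPM in group 2 replicate 3, against 216 to 259 CPM in the other 4. The member at 16074767 to 16080991 had 225 CPM in it, against 315 to 359 CPM. The level of the low male in the last of these still lay inside the range of 2n (196 to 346 CPM). So did its level in the member at 6239423 to 6252495 (136 to 274 CPM in 2n).

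Among members with at least 8 CPM, the furthest below its group was the gene at 3595560 to 3606017, with a relative level of -1.56 and 5.55 CPM against 15.1 to 23.2 CPM in the other 4 group 2 males. Next came the member at 19887397 to 20047121 (8.39 CPM against 20.8 to 28.1 CPM) and the member at 4948767 to 4952454 (4.32 CPM against 11.7 to 13.0 CPM), both with a relative level of -1.47. The 3 were picked for their low level in this male, so its place below the other 4 was set by that choice.

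The drop was smallest for members of the lowest level and differed little by exon length or strand. Median relative levels were -0.31 for 75 members of 1 to 2 CPM, -0.53 for 168 of 2 to 8 CPM, -0.62 for 155 of 8 to 32 CPM and -0.58 for 96 of 32 CPM and more. The constant of 0.5 CPM pulls low genes toward 0, but its part in the smaller drop of this class was not tested. By exon number, the medians were -0.86 for the 12 members with 1 exon, -0.58 for 81 with 2 to 5, -0.55 for 188 with 6 to 15 and -0.57 for 213 with 16 and more. The 12 single-exon members were the lowest class and also the smallest. In 4 classes of rising exon length, of near equal size, the medians were -0.59, -0.58, -0.57 and -0.54, and they were -0.58 for the plus and -0.56 for the minus strand.

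The low level ran from one end of the chromosome to the other. Cut into 24 windows of 1 Mb, with 5 to 46 members each (median 20), group 2 replicate 3 had a median below 0 in all 24, from -0.86 to -0.30. In 22 of the 24 it was the lowest of all 26 males. Over the 17 windows with at least 15 members, medians ran from -0.86 to -0.44. The 302 members that start in the first 12 windows had a median of -0.60 and the 192 in the last 12 a median of -0.52.

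**Figure D3:**
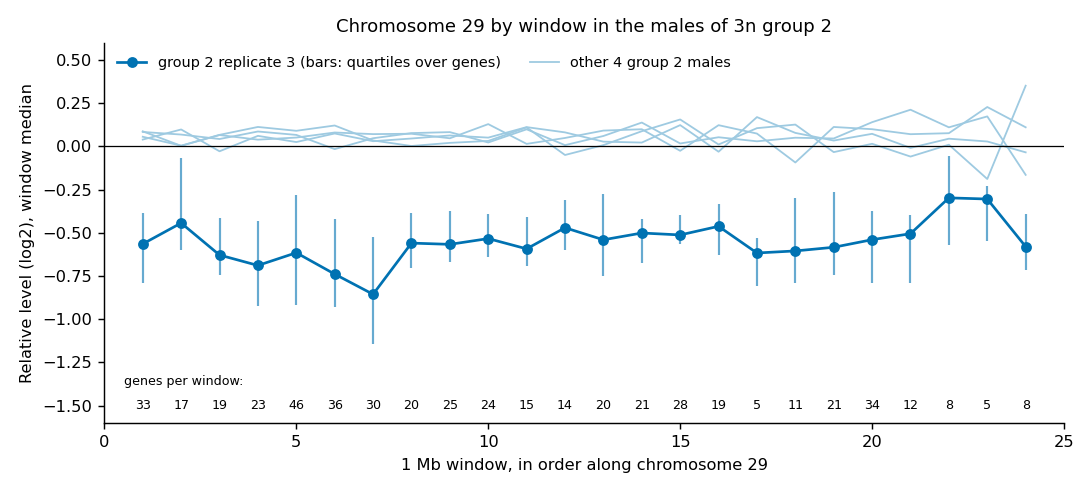
Median relative level (log2, vertical axis) of the members in each 1 Mb window along chromosome 29 (horizontal axis, window number) in group 2 replicate 3, with bars from the first to the third quartile over genes, and in the other 4 group 2 males; the number of members per window stands at the bottom. The low male is below 0 in all 24 windows, deepest at -0.86 in window 7, while the other 4 stay between -0.19 and 0.35.

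The size of the drop varied along the way. The 3 lowest window medians were -0.86 in window 7 (30 members), -0.74 in window 6 (36) and -0.69 in window 4 (23), with -0.62 in window 5 between them (46). Summed over the 30 members of window 7, from 6003507 to 6888181, the share of counts was 0.526 times that of the other 4 group 2 males. By this summed share window 21 (12 members) was lower, at 0.495, and window 4 about the same, at 0.525. Windows with the least change were window 22 with -0.30 (8 members), window 23 with -0.30 (5) and window 2 with -0.44 (17), where the summed share was 0.805 times that of the other 4. Windows 22 to 24 hold few and weak genes, with summed levels of 31.3, 16.4 and 14.3 CPM, and their medians rest on little RNA. These windows were picked after their values were seen.

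The 22 members at or above 0 in group 2 replicate 3 were spread over 12 windows, with at most 3 in a window. Of them, 17 had a mean level under 8 CPM. The 3 highest of at least 8 CPM were neighbours or near neighbours of another exception. The member at 4364240 to 4372282 had 75.5 CPM in the low male, against at most 73.8 CPM in the other 4, and the next gene, at 4372435 to 4376942, had a relative level of 0.10. The member at 1678067 to 1686811 had 26.1 CPM in the low male, against 20.4 to 26.3 CPM, and the one beside it, at 1687511 to 1690771, had 44.5 CPM, against 34.8 to 52.6 CPM. For these 3 the low male lay within or just above the other males of its group. Genes of the chromosome under the threshold were low as well: the 303 of them took 433 counts in group 2 replicate 3, or 0.00279% of its counts, against 0.00368 to 0.00417% in the other 4. No share of equally weak genes on other chromosomes was set beside this, so it is not shown to be particular to chromosome 29.

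In the other males, windows scattered around 0. Of the 96 window values of the other 4 group 2 males, 95 lay within 0.25 of 0 (SD 0.0717), as did 144 of 144 in group 3 (SD 0.0649). The scatter was wider in group 1, where 116 of 120 did (SD 0.130), and in 2n, where 226 of 240 did (SD 0.129). The lowest value outside the low male was -0.78, in group 1 replicate 1 for window 17, which holds 5 members, and the same male had -0.41 in window 18 with 11 members. In 2n the values ran from -0.33 to 0.53, with the highest in replicate 7 for window 22 of 8 members. No other male was low over the whole chromosome.

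**Figure D4:**
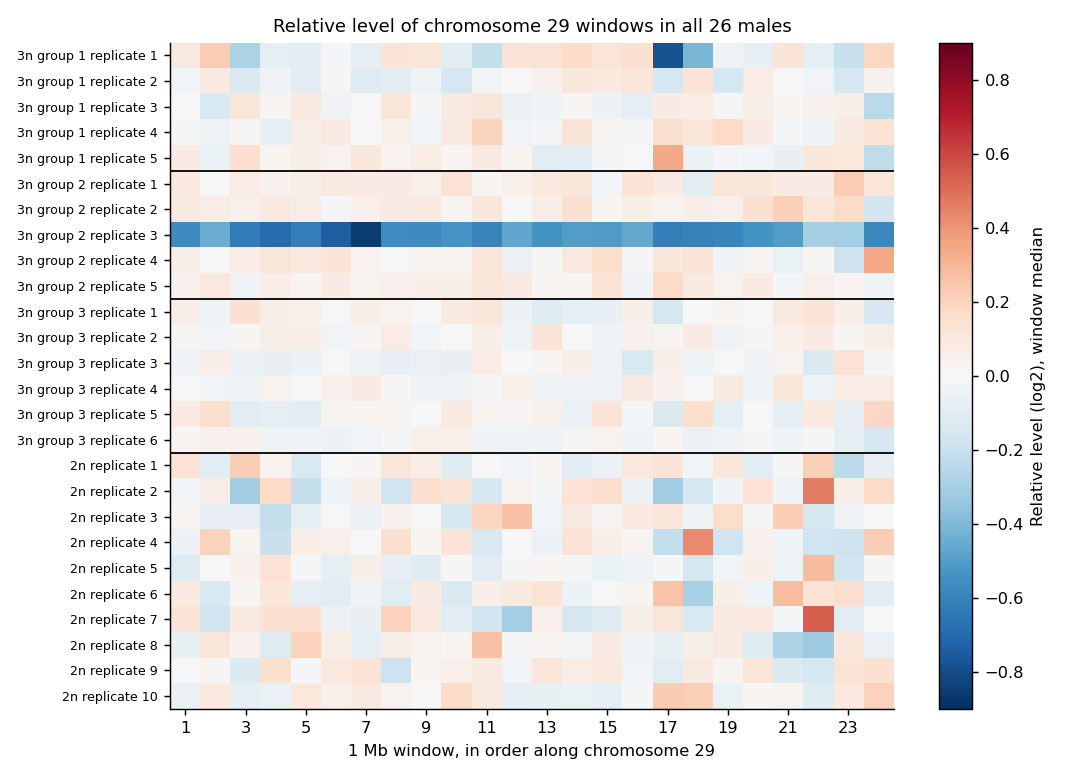
Median relative level (log2, colour) of chromosome 29 members by 1 Mb window (horizontal axis) in each of the 26 males (rows, by group, each set against the other males of its group). One row, group 2 replicate 3, is blue throughout, and the other rows hold scattered windows, with -0.78 in window 17 of group 1 replicate 1 the lowest of them.

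The spread between males restates the same values and adds no support of its own. The median SD of a member over the males of a group, in log2(CPM + 0.5), was 0.298 in group 2, against 0.166 for all other genes and 0.172 for chromosome 4 genes. Without replicate 3 it was 0.155, the same as for other genes (0.155). In group 1 members had 0.333 against 0.350 for other genes, in group 3 0.206 against 0.202, and in 2n 0.378 against 0.390, so that members varied much as other genes did there.

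Levels were then compared between groups with edgeR's quasi-likelihood test over 42352 genes, all 494 members among them, at a Benjamini-Hochberg adjusted p under 0.05. Only 34304 genes of the table had a mean of at least 1 CPM, so the genes tested include weaker genes than any member. Shares of members and of all genes, also those at 2-fold or more, are therefore set side by side over unlike ranges of level. At the same 22 °C, group 3 against 2n called 211 members, 94 higher and 117 lower. Of all genes tested, 44.4% were called, 17.7% higher and 26.7% lower, and of the members 42.7%, 19.0% and 23.7%, a share near that of the table as a whole. The median log2 fold change was -0.07 for members and -0.10 for all genes. Changes of at least 2-fold were called for 27 higher members (5.47%, against 5.37% of all genes) and 29 lower members (5.87%, against 11.7% of all genes).

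Group 1 against 2n called 175 members, 69 higher and 106 lower, or 35.4% of them, against 34% of all genes (15.8% higher and 18.2% lower). The medians were -0.09 for members and -0.05 for all genes. Changes of 2-fold or more were called for 22 higher members (4.45%, against 6.8% of all genes) and 19 lower members (3.85%, against 4.96%). Which direction held more calls depended on the scaling. With upper quartile normalization, 96 members were higher and 54 lower, with 32.8% of all genes called. The median of all genes moved from -0.05 to 0.12. With only group 1 and 2n in the fit, 53 were higher and 52 lower. Calls also fell without single males of group 1, in members and in all genes. Without replicate 1, 53 members were higher and 66 lower, with 26.1% of all genes called, and without replicate 2, 59 were higher and 65 lower, with 25.5% of all genes called.

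Group 2 against 2n called 197 members, 60 higher and 137 lower, or 39.9% of them, against 35.2% of all genes. The lower calls made up 27.7% of members, above the 21.1% of all genes, and the higher calls 12.1%, against 14.1% of all genes. Without the single low male this lean was not seen. The chromosome was picked for that male, so the lean and its loss are a description only. Without group 2 replicate 3, 74 members were higher and 88 lower; the lower share was 17.8%, against 17.5% of all genes (29.6% in either direction, 12.1% higher), and the median log2 fold change was -0.07 in place of -0.17. All 88 were among the 137 lower members found with every male. For all genes the median was -0.11 both with and without this male. The 3 comparisons above share their 2n males.

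Group 1 against group 2, both sampled at 28 to 31 °C, called 237 members, 134 higher and 103 lower, or 48.0%, against 47.9% of all genes (25.8% higher and 22.2% lower). The median was 0.14 for members and 0.10 for all genes. Without group 2 replicate 3 the split turned, with 105 members higher and 128 lower and a median of 0.04. Of all genes 43.6% were then called, 23.1% higher and 20.5% lower. The chromosome was picked for this male, so the turn is also a description only. With upper quartile normalization and every male, 202 members were higher and 75 lower, with 52.3% of all genes called. The median of all genes was then 0.30. Without group 1 replicate 2, 127 members were higher and 67 lower, with 40.6% of all genes called.

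Group 1 against group 3, which differ in temperature and in parentage, called 261 members, 121 higher and 140 lower, or 52.8%, against 56.5% of all genes (30.7% higher and 25.8% lower). The median was -0.02 for members and 0.09 for all genes. Upper quartile normalization gave 186 higher and 99 lower members, with 58.5% of all genes called and a median of 0.33 for all genes. At 2-fold or more, 55 members were higher (11.1%, against 17.7% of all genes) and 48 lower (9.72%, against 8.99%).

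Group 2 against group 3 is the contrast from which the chromosome was picked. Its calls are therefore a description only. edgeR called 0 members and 0 genes (0%), DESeq2 called 0 members and limma-voom 0. The median log2 fold change was -0.12 for members and 0.01 for all genes, and -0.02 for members without group 2 replicate 3.

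By position, calls against 2n are given for windows 2 and 15, picked here after their values were seen. In window 2, of 17 members, 3 were higher and 4 lower in group 1, and 1 was higher and 8 lower in group 3. In window 15, of 28 members, 4 were higher and 7 lower in group 1, and 2 were higher and 8 lower in group 3. Over all genes, 15.8% were higher and 18.2% lower in group 1, and 17.7% higher and 26.7% lower in group 3. The group 1 counts of both windows, and the lower count of window 15 in group 3, lie near these shares. Group 1 against group 3 had 11 higher and 3 lower members in window 15, against 30.7% and 25.8% of all genes. No test of these counts was made.

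Single members are given next, picked for the size of their change, so they do not stand for the chromosome. The 4 below had the 2 lowest and 2 highest log2 fold changes of group 3 against 2n among called members whose mean log2 CPM reached 1. ENSCARG00000053023 (2973939 to 2980836, minus strand, 8 exons) had 0.936, 1.18, 3.32, 2.42 and 6.05 CPM in group 1 and 0.130, 0.201, 0.129, 0.258 and 0.112 CPM in group 2. In group 3 it had 0.0424 at the lowest, 0.0795 at the median and 0.295 CPM at the highest, and in 2n 2.00, 3.85 and 10.5 CPM. Groups 2 and 3 were both near 0, with a few counts per library, and did not overlap 2n or group 1. Its log2 fold change by edgeR was -4.82 ± 0.60 (SE, adjusted p = 6.1e-07) for group 3 and -4.36 ± 0.62 (adjusted p = 6.0e-06) for group 2 against 2n. Group 1 against 2n gave -0.69 ± 0.40 (adjusted p = 0.18), which missed the threshold.

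ENSCARG00000012281 (1426017 to 1460069, minus strand, 41 exons) had 11.2, 7.05, 3.67, 4.53 and 3.65 CPM in group 1 and 1.82, 1.69, 1.10, 1.68 and 2.06 CPM in group 2. In group 3 it ran from 1.09 over a median of 1.32 to 2.15 CPM, and in 2n from 2.80 over 7.64 to 20.8 CPM. Groups 2 and 3 lay below every male of group 1 and 2n. The log2 fold change was -2.69 ± 0.40 (adjusted p = 1.3e-05, edgeR) for group 3, -2.44 ± 0.42 (adjusted p = 0.00011) for group 2 and -1.15 ± 0.37 (adjusted p = 0.021) for group 1, each against 2n. Within 2n, the 5 males of library number 14 had 8.98 to 20.8 CPM, above the 2.80 to 6.31 CPM of the other 5. The group 1 males, at 3.65 to 11.2 CPM, overlapped those other 5. All but the highest of group 1 lay below the number 14 males. Against the number 14 males alone group 3 had -3.32, and against the number 108 males alone -1.64.

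ENSCARG00000024342 (11708580 to 11714433, plus strand, 12 exons) went the other way. It had 0.383, 0.296, 0.349, 0.269 and 0.196 CPM in group 1, against 13.2, 10.8, 12.6, 10.4 and 11.2 CPM in group 2. Group 3 had 8.44 at the lowest, 11.4 at the median and 14.2 CPM at the highest, and 2n had 0, 0.668 and 10.3 CPM. The triploid groups were split, with group 1 below all of groups 2 and 3, and 2n held both kinds of male: replicates 3 and 9 had 8.13 and 10.3 CPM, the other 8 had 1.96 CPM or less, and replicate 7 had 0 counts, which allows up to 0.195 CPM. By edgeR the log2 fold change was 2.54 ± 0.56 (adjusted p = 0.00096) for group 3 and 2.56 ± 0.58 (adjusted p = 0.0018) for group 2 against 2n. Group 1 gave -3.18 ± 0.90 (adjusted p = 0.0084) against 2n and -5.72 ± 0.92 (adjusted p = 2.3e-05) against group 3. The group 1 males, at 0.196 to 0.383 CPM, lay inside the 0 to 1.96 CPM of the 8 lower males of 2n. Group 3 against the number 14 males alone gave 5.03, against the number 108 males alone 2.11, and against all 2n males by limma-voom 4.12. Group 2 replicate 3, with 12.6 CPM, was not low in this member, which is among the 22 exceptions.

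ENSCARG00000020577 (12839674 to 12853939, plus strand, 20 exons) had 0.383, 0.169, 0.131, 0.115 and 0.0786 CPM in group 1, against 7.97, 8.83, 7.81, 9.04 and 7.06 CPM in group 2. Group 3 had 6.19, 8.38 and 10.8 CPM at the lowest, median and highest, and 2n had 0, 0.166 and 3.29 CPM. Groups 2 and 3 lay above every male of group 1 and of 2n. Within 2n, the 4 males of number 108 had 3.29, 2.13, 2.85 and 2.78 CPM, and the other 6 had from 0 to 0.200 CPM, 3 of them with 0 counts. The log2 fold change by edgeR was 3.14 ± 0.51 (adjusted p = 3.7e-05) for group 3, 3.06 ± 0.53 (adjusted p = 0.00011) for group 2 and -2.93 ± 0.89 (adjusted p = 0.013) for group 1, each against 2n. The group 1 males, at 0.0786 to 0.383 CPM, lay below the number 108 males but overlapped the other 6 males of 2n. The -2.93 is therefore not a drop below 2n males in general. Group 1 stood at -6.07 ± 0.85 against group 3 (adjusted p = 4.2e-06). Group 3 against the number 14 males alone gave 7.13, where most of the 2n males are at or near 0 counts, and against the number 108 males alone 1.97; limma-voom gave 4.86 against all 2n males. Within 2n the level of this gene moved with the library number, whose part in the result was not tested.

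**Figure D5:**
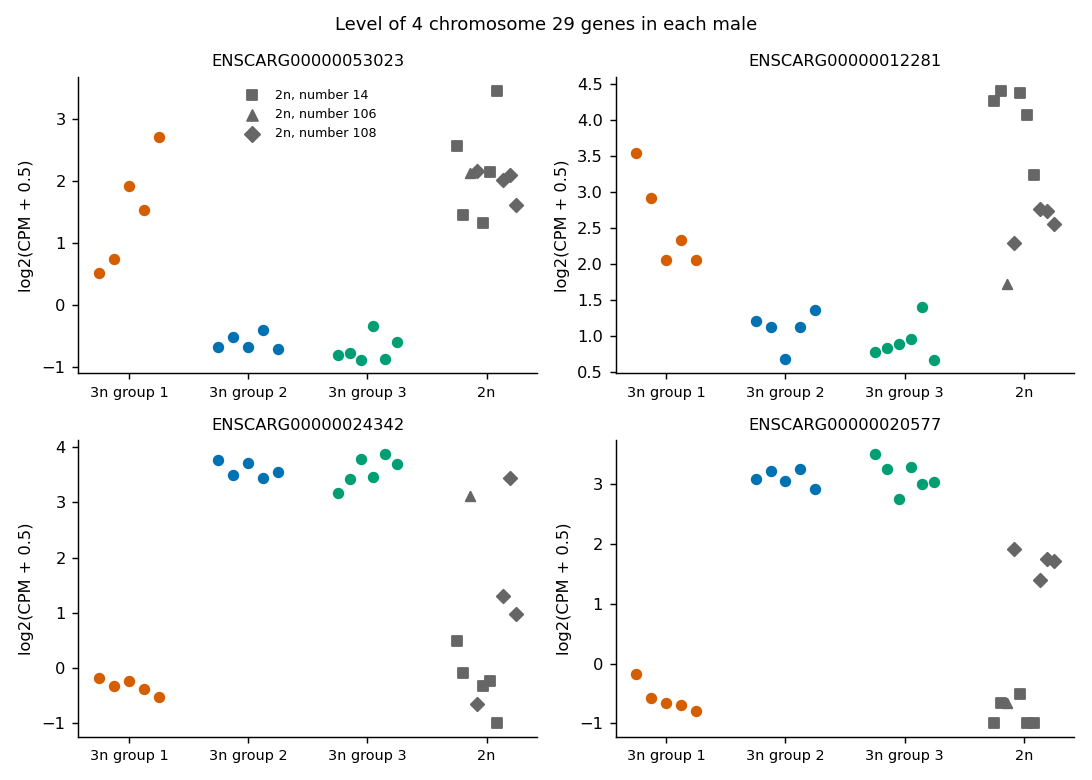
Level of the 4 members with the 2 lowest and 2 highest fold changes of group 3 against 2n, among called members whose mean log2 CPM reached 1 (log2(CPM + 0.5), vertical axis) in each male, by group, with the second library number of the 2n males as the shape of the point. Groups 2 and 3 lie together and apart from group 1 in every panel, and in the lower right panel the 2n males of number 108 lie above the other 2n males.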

How the data were processed

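Per the file headers, the authors counted reads per gene with featureCounts 2.0.6 (strand setting 2) and deposited raw counts, summed over exons, of properly paired fragments between 1 and 25000 bp long, at a minimum mapping quality of 0 and with no option for multi-mapping reads. Reads of near-identical copies, such as those of partner chromosomes, may be missing or divided. The annotation was that of the goldfish, ASM336829v1-104, so positions are those of a related species. Also named, per the submitters' processing notes, are STAR 2.7.3a, Subread 2.0, cutadapt 4.3, Picard 2.25.6, FastQC and MultiQC 1.10.1, without their roles. The sources used here do not give whether the molecular identifiers in the adapters were used.

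Computed here were CPM over the column total (no row lacked a gene, 0), shares of counts, and relative levels as log2(CPM + 0.5) with a pseudocount of 0.5. Groups came from the labels. The main test was edgeR 4.0.16 (limma 3.58.1, R 4.3.3) in 1 model of the 4 groups, with TMM, a minimum count of 10, robust estimation, the newer dispersion estimate and Benjamini-Hochberg adjustment over 42352 genes; the script was also tested on simulated data. DESeq2 1.42.0, limma-voom, other normalizations, filters, thresholds, sets of samples, a replicate block and leaving out each male were alternatives. The members, lists and the rule for named genes were chosen with earlier results of these data known. Among members called in group 3 against 2n whose mean log2 CPM reached 1, the rule took by ID those with the 2 highest and the 2 lowest fold changes, and by position, with no test, the 5 members of highest mean CPM and the 3 lowest and 3 highest in group 2 replicate 3 among those of at least 8 CPM. Of 80 pairs of libraries within a group, 0 held identical values, and the lowest chi-square per gene was 3.94, where sampling gives about 1. Replicate numbers did not pair the males: deviations correlated above 0.1 in 7 of 31 pairs of the same number.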

Additional observations from a re-analysis of the deposited data

Results flagged for a closer look

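In 44 groups of values looked at, 5 were flagged for a male with a wide gap to the nearest other male. The flagged gaps took up 0.598 (n = 10) to 0.969 (n = 5) of the range of the group. Other gaps that took up most of a range were not flagged. Chance alone flags about 1 in 20 such groups. The relative level of chromosome 29 in group 2 replicate 3 was -0.57, with the next male at 0.05. Its share of counts was 0.709%, with the next male at 1.09%. The member at 19877399 to 19886150 had 190 CPM in the same male, with the next at 379 CPM. These 3 belong to the male for which the chromosome was picked and are a description.

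ENSCARG00000053023 had 10.5 CPM in 2n replicate 7, with the next 2n male at 5.43 CPM. ENSCARG00000012281 had 2.15 CPM in group 3 replicate 5, with the next male of group 3 at 1.43 CPM.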

How the results depend on the processing

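The relative level of chromosome 29 in group 2 replicate 3 was below 0 in all 14 alternatives: -0.60 for members of at least 8 CPM, -0.46 with a threshold of 0.1 CPM, -0.63 with a pseudocount of 0.01, -0.43 with 2, -0.63 as the log2 ratio of summed counts, and -0.58 to -0.56 leaving out each other group 2 male. Over numbered chromosomes alone its share was 0.846%, against 1.30 to 1.41% in the other males. In windows of 2 Mb the median was -0.56, as in those of 1 Mb. At an adjusted p under 0.01, called members fell to 84 (group 1 against 2n, with 19.5% of all genes called), 106 (group 2 against 2n, 19.8%), 137 (group 3 against 2n, 28%) and 144 (group 1 against group 2, 30.9%), as a stricter threshold must. With only its 2 groups in the fit, group 1 against 2n called 105 (19.7% of all genes); the cause was not tested. Without group 1 replicates 1 and 2 together, with fewer samples, group 1 called 90 members against 2n, 119 against group 2 and 165 against group 3 (18.9, 27.8 and 38.2% of all genes). Leaving out each male gave 119 to 186 (group 1), 161 to 204 (group 2) and 177 to 223 (group 3) against 2n, 182 to 248 and 226 to 278 for group 1 against groups 2 and 3, and 0 for group 2 against group 3; over all genes, in the same order, 25.5 to 36.8%, 28 to 37.4%, 37.2 to 46.7%, 40.1 to 50.1%, 49.4 to 58% and 0% were called. With the replicate block, in the same order, 128, 162, 171, 231, 251 and 0 members were called (30.1, 30.2, 38, 48.9, 55 and 0% of all genes), and the log2 fold change of group 3 against 2n was 3.84 for ENSCARG00000024342 and 4.64 for ENSCARG00000020577; by limma-voom these were 4.12 and 4.86, against 2.54 and 3.14 by edgeR, and the cause was not tested. The replicate numbers are shared in name alone, and 8 of 62 best matches carried the same number. The older edgeR dispersion estimate, chosen after seeing the data, gave 167, 196, 209, 235, 260 and 0 (32, 34.4, 43.8, 46.7, 55.3 and 0% of all genes). In group 3 against 2n, the 4 members named by ID kept direction and call in all 37 alternatives. Their calls in the other comparisons were not followed in this way. Members of few counts limit the precision of windows 22 to 24.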

Other observations

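Outside the numbered chromosomes, 294 sequences not placed on a chromosome held at least 5 genes with a mean of at least 1 CPM. In group 2 replicate 3, 2 of them had a median relative level under -0.5 and 0 had one over 0.5, while 274 lay within 0.25 of 0. One, of 10 genes, had a median of -0.60 with all 10 below 0, against -0.02 to 0.10 in the other 4 males of group 2. The other, of 9 genes, had -0.58 with all 9 below 0, against -0.15 to 0.15. Both were taken for a median under -0.5, so that they lie near the -0.57 of chromosome 29 is partly set by this cut. A further sequence, of 11 genes, missed the cut with -0.43 and all 11 below 0, against -0.13 to 0.35 in the other 4. Set against the other males of groups 2 and 3 together, these sequences had -0.58, -0.59 and -0.29, in the order given. The sequences were picked after their values were seen, and where they lie in the genome was not tested.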
